A study of Mus musculus with 16 samples.

Results

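Transforming growth factor beta (TGF-beta) signalling was described here through 10 genes on 16 arrays of mouse coronal suture cells. The genes were taken from a fixed list: the ligands Tgfb1, Tgfb2 and Tgfb3, the activin subunit gene Inhba and the activin trap gene Fst, the receptors Tgfbr1, Tgfbr2 and Tgfbr3, the inhibitor Smad7 and the target Tgfbi. All 10 were measured, each by 1 probe set, and all 10 were among the 13453 genes tested of 22180 with a named probe set. The coronal suture is the seam of fibrous tissue where the frontal bones meet the parietal bones. Cells came from C57BL6 mice that were wild type or Twist 1+/-, with a single working copy of a transcription factor gene of mesenchymal cells, and the sources used here do not describe the mutant allele or give the animals' age. All cells grew in DMEM with serum, penicillin, streptomycin and amphotericin, either without addition (control) or with thyroxine, the main hormone of the thyroid gland, at a molar concentration whose log10 was -6. Cells were harvested after 3 or 7 days. The 8 groups of genotype, medium and day held 2 arrays each, 1 of female and 1 of male cells, so the series rests on 4 cultures, 1 for each genotype and sex. Whether the cells of both days came from the same flask is not given in the labels.

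TGF-beta ligands are made as latent complexes bound to the extracellular matrix and act, once released, on a complex of the type II receptor Tgfbr2 and the type I receptor Tgfbr1, with betaglycan (Tgfbr3) as a coreceptor that presents ligand. The receptors phosphorylate SMAD proteins, which enter the nucleus and switch genes, among them Smad7, an inhibitor that closes a feedback loop. Activin A, a dimer of the Inhba product, signals through related receptors and is bound and neutralised by follistatin, the product of Fst. In the skull, TGF-beta ligands are known as regulators of suture fusion.

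Levels below are log2 values of the authors' RMA normalization, and a difference of 1 is a doubling. A gene was said to rise or fall where limma's test gave a Benjamini-Hochberg adjusted p under 0.05 over all 13453 genes. The number of arrays limits the precision, and with 1 culture per genotype and sex the p-values do not cover variation from animal to animal.

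The cell type labels were set against marker genes. The mesenchymal genes Prrx1 (9.91 to 10.71 over the 16 arrays), Pdgfrb (9.81 to 10.97), Col1a1 (11.75 to 12.93) and Vim (12.50 to 12.99) were measured on every array. Of 9 osteoblast markers 6 were measured, and the defining genes Sp7 and Ibsp had means of 3.87 and 2.50, below the 3.905 needed for testing. Alpl, an alkaline phosphatase gene, was the only osteoblast marker tested (mean 5.25), and it fell from 3 to 7 days by 0.40 on the log2 scale (SE 0.09, adjusted p = 0.00758, limma). Macrophage genes were also present: Csf1r lay between 8.43 and 10.46, Adgre1 between 7.27 and 10.22, Tyrobp between 6.78 and 9.60 and Ptprc between 6.44 and 8.55, and none was near the bottom of the scale. The summed level of the 19 macrophage and osteoclast markers, as log2 of the sum, lay between 12.80 and 13.54 at 3 days in the wild-type female and both Twist1+/- cultures, at 14.41 and 14.42 for wild-type male cells, and between 14.47 and 14.80 on all arrays at 7 days. The wild-type male culture therefore stood apart in these markers at 3 days. It also stood apart in mesenchymal markers at both days. Their summed level lay between 14.00 and 14.07 on its arrays and between 14.29 and 14.68 on all others. Col1a1 read 11.75 to 11.83 there and 12.36 to 12.93 elsewhere, Prrx1 and Pdgfrb were lower as well, and Vim was not. Values without this culture are given beside the results it moved most. In these bulk samples fewer cells of a type and less RNA per cell cannot be told apart.

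Of the comparisons made over all cultures, the one between days had the most calls. From 3 to 7 days, compared within cultures, 7 of the 10 genes passed, 4 higher and 3 lower, against 23.6% of all genes tested (11.9% higher and 11.7% lower). The count was 4 with the culture as a random block (Tgfb1, Tgfbr1, Tgfbi and Inhba), for which the share of all genes is not given here. With no replicate block it was 3, where Inhba did not pass (adjusted p = 0.0529, limma) and 13.7% of all genes did. In the within-culture comparison Tgfb1, Tgfbr1, Tgfbi and Tgfbr2 rose, and Inhba, Tgfbr3 and Smad7 fell. Tgfb2, Tgfb3 and Fst did not pass. The median difference over the 10 genes was -0.07, against -0.02 over all genes tested.

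**Figure D1:**
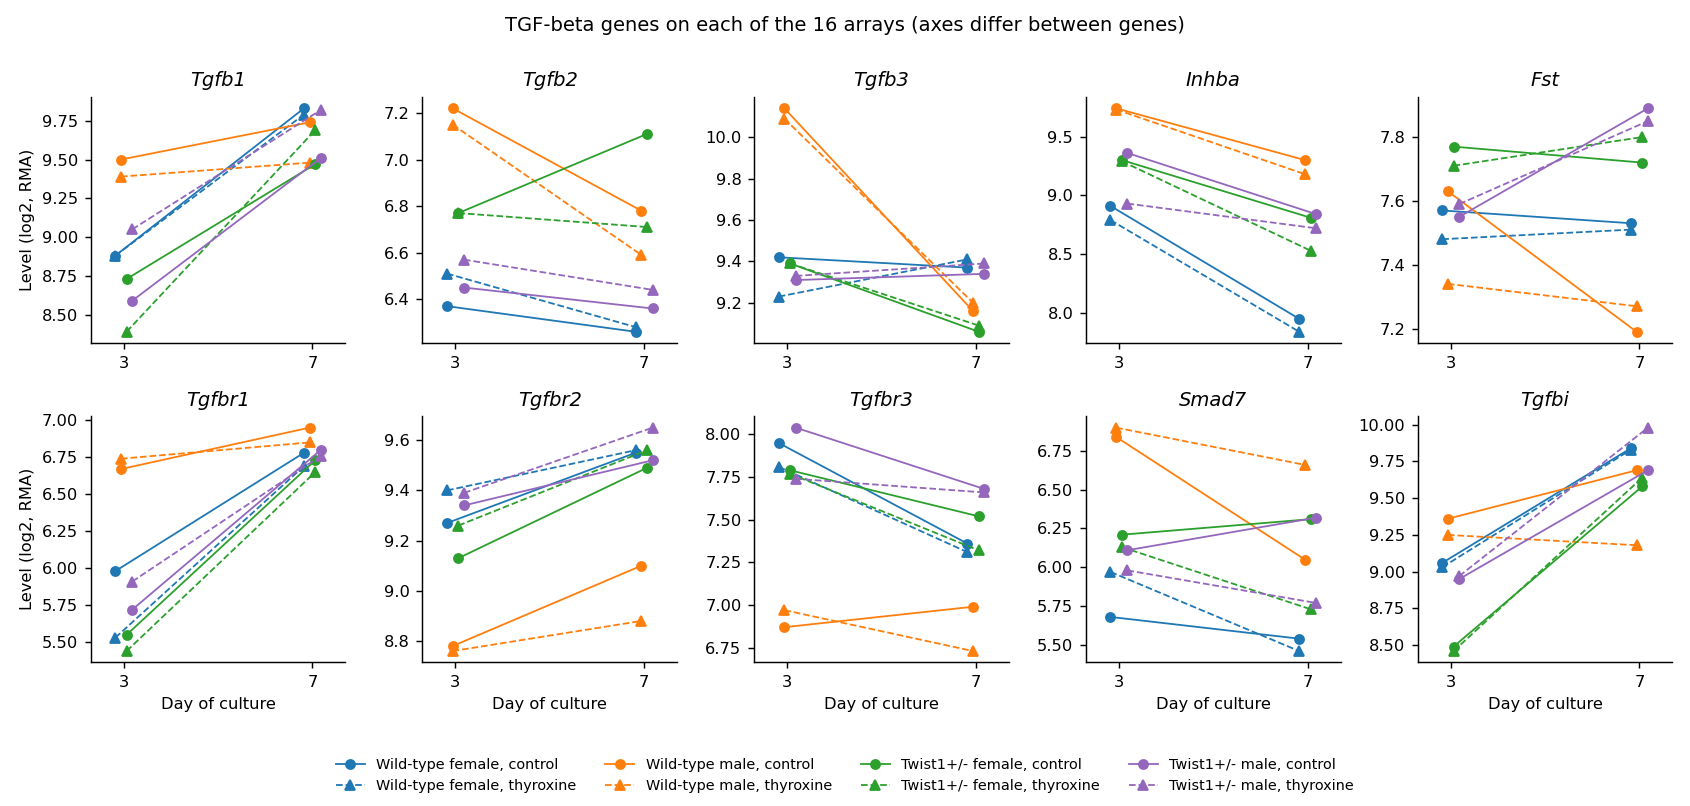
Level of each gene (log2, RMA) on each of the 16 arrays by day of culture, with a line for each culture and medium (circles and full lines, control; triangles and dashed lines, thyroxine). Tgfb1, Tgfbr1 and Tgfbi are higher and Inhba is lower at 7 than at 3 days in most cultures, while the wild-type male culture starts high for Tgfb1 and Tgfbr1 and is low for Tgfbr2 and Tgfbr3.

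The genes with the 4 largest differences are shown with the 250 bases before an annotated start, 3 from genes that rose and 1 from the gene that fell. RefSeq sequences were found for 6 of the 10 genes (build GRCm38.p6), not for Tgfb3, Tgfbr3, Smad7 and Fst. All 4 lie on the plus strand: Tgfb1 at chr7:25686752-25687001, Tgfbr1 at chr4:47352972-47353221, the first of 2 starts listed for this gene, Tgfbi at chr13:56609336-56609585 and Inhba at chr13:16011601-16011850. Capitals mark GGGCGG (the GC box), CAGAC (the core of SMAD binding boxes) and TATAAA (the sequence of the TATA box, wherever it lies), and both strands were searched. A motif on the minus strand appears as its reverse complement.
Tgfb1: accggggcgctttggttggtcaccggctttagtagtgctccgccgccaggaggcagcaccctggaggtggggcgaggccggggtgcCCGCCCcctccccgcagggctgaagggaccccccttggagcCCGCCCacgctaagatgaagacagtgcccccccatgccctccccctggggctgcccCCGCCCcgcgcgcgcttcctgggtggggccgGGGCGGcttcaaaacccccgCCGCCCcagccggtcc
Tgfbr1: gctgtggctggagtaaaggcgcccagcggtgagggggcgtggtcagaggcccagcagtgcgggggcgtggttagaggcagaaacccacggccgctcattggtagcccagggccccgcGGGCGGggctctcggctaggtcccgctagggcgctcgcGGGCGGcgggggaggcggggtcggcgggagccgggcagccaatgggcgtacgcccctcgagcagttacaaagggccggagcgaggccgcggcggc
Tgfbi: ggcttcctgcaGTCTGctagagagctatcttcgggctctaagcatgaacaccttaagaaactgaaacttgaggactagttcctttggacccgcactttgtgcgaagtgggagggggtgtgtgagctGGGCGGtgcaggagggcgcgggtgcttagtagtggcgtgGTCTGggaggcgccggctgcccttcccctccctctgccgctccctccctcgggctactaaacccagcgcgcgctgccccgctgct
Inhba: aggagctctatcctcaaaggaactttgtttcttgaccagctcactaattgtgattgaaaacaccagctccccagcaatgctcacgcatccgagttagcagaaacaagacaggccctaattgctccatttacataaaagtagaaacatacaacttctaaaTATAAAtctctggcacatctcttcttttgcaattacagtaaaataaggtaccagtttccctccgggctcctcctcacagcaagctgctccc

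The Tgfb1 window held 5 GC boxes, the Tgfbr1 window 2 and the Tgfbi window 1. The Inhba window held 0 of them and 1 TATAAA, which lay 91 to 86 bases before the start. That window lies inside the annotated Inhba gene, which spans 16004256 to 16031609, whereas the other 3 lie just before their genes. Of 32851 windows of this length, 32.7% held GGGCGG and 12.4% held TATAAA. The SMAD motif CAGAC, present in 42.2% of windows, was found in the Tgfbi window (2 matches) and not in the other 3. No match was found in these 4 windows for TGANTCA (the AP-1 site, in 6.75% of windows), TGACGTCA (the cyclic AMP response element, 1.55%), GAGGAA (the core of the PU box, 23.3%), AGGTCA (the core of the hormone response element, 14%) or CANNTG (the E-box, 66.2%). The window of the second Tgfbr1 start, which is not shown, held 1 match for the SMAD motif, 1 for the PU box core and 1 for the E-box. Tgfbr2 also rose, and its window, not shown, held 0 GC boxes, 1 SMAD motif and 1 PU box core. The window of Tgfb2, which did not pass, held 0 GC boxes and 1 TATAAA, 31 to 26 bases before the start. It also held 2 SMAD motifs, 1 PU box core and 1 E-box. The marked motifs did not overlap. G and C made up 75.2% of the Tgfb1, 74.8% of the Tgfbr1, 62.4% of the Tgfbi and 43.2% of the Inhba window.

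Among the ligands, Tgfb1, which encodes the main TGF-beta of immune and mesenchymal cells, rose. In the wild-type female culture it read 8.88 in control medium and 8.88 with thyroxine at 3 days, and 9.83 and 9.79 at 7 days. In the wild-type male culture the same 4 readings were 9.50 and 9.39 at 3 days and 9.74 and 9.48 at 7 days. In Twist1+/- cells they were 8.73 and 8.39, then 9.47 and 9.69, in the female culture, and 8.59 and 9.05, then 9.51 and 9.82, in the male culture. Outside the wild-type male culture no reading at 3 days reached the lowest reading at 7 days, whereas the wild-type male culture was already within the 7-day range at 3 days in control medium. The rise was 0.74 ± 0.11 (SE, 1.67-fold, adjusted p = 0.000329, limma), in 8 of 8 comparisons of the same culture and medium. These comparisons, here and below, take each of the 4 cultures in both media, so they are not independent. Tgfb1 also passed without the wild-type male culture, where Smad7 was the only one of the 7 genes that did not.

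The remaining TGF-beta ligands did not pass. Tgfb2, whose product needs betaglycan to bind its receptors well, ranged from 6.37 to 7.22 (median 6.67) at 3 days and from 6.26 to 7.11 (median 6.52) at 7 days, and the days overlapped almost wholly. Its difference was -0.16 ± 0.08 (SE, adjusted p = 0.173) and was negative in 7 of 8 comparisons. Tgfb3, a ligand needed for palate fusion, read 10.14 and 10.09 at 3 days in wild-type male cells and between 9.06 and 9.42 on the 14 other arrays. In that culture it was 0.98 and 0.89 lower at 7 days in control medium and with thyroxine, while the other cultures differed by -0.33 to 0.18. The difference over all cultures was -0.29 ± 0.11 (SE, adjusted p = 0.0934), and without the wild-type male culture it was -0.04 ± 0.08 (adjusted p = 0.794). It passed without the wild-type female thyroxine array at 3 days or without either wild-type female array at 7 days (adjusted p from 0.0259 to 0.0393).

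Inhba, which encodes the subunit of activin A, fell. In the wild-type female culture it read 8.91 (control) and 8.79 (thyroxine) at 3 days and 7.95 and 7.84 at 7 days. Wild-type male cells read 9.74 and 9.73 at 3 days and 9.30 and 9.18 at 7 days. Among Twist1+/- cells it read 9.30 and 9.29, then 8.81 and 8.53, in the female culture, and 9.36 and 8.93, then 8.84 and 8.72, in the male culture. The days overlapped across cultures, with the wild-type male culture highest and the wild-type female culture lowest at 7 days, but within every culture and medium the 7-day array was lower. The fall was 0.61 on the log2 scale (SE 0.08, adjusted p = 0.000154, limma), in 8 of 8 comparisons, where 5.75% of all genes tested were lower in 8 of 8. Fst, whose product traps activin, had the smallest mean difference of the 10 by day (0.02 ± 0.06, SE, adjusted p = 0.903, limma). Its median was 7.58 at 3 days and 7.63 at 7 days. That mean joined opposite signs, -0.13 ± 0.09 in wild-type cells (adjusted p = 0.473) and 0.16 ± 0.09 in Twist1+/- cells (adjusted p = 0.252). Single comparisons ran from -0.44 in the wild-type male to 0.34 in the Twist1+/- male culture, both in control medium.

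The 3 receptors moved in different directions. Tgfbr1, the type I receptor kinase, read 5.98 (control) and 5.53 (thyroxine) at 3 days and 6.78 and 6.69 at 7 days in the wild-type female culture. Wild-type male cells read 6.67 and 6.74 at 3 days and 6.95 and 6.85 at 7 days. The Twist1+/- readings were 5.55 and 5.44, then 6.73 and 6.65, in the female culture, and 5.72 and 5.91, then 6.80 and 6.76, in the male culture. All 8 arrays at 7 days lay within 6.65 to 6.95, and the 6 readings at 3 days outside the wild-type male culture lay well below them. Tgfbr1 rose by 0.83 ± 0.11 (SE, 1.78-fold, adjusted p = 0.000171, limma), in 8 of 8 comparisons.

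Tgfbr2, the type II receptor that binds ligand first, ranged from 8.76 to 9.40 (median 9.27) at 3 days and from 8.88 to 9.65 (median 9.54) at 7 days. The days overlapped in full range, and all 4 wild-type male arrays, between 8.76 and 9.10, lay below the 12 others, which lay between 9.13 and 9.65. Within cultures it rose by a small amount, 0.25 ± 0.05 (SE, adjusted p = 0.00320), in 8 of 8 comparisons, where 6.08% of all genes tested were higher in 8 of 8. Tgfbr3, the coreceptor betaglycan, ranged from 6.87 to 8.04 (median 7.78) at 3 days and from 6.73 to 7.68 (median 7.34) at 7 days. It fell by 0.30 on the log2 scale (SE 0.08, adjusted p = 0.0143), in 7 of 8 comparisons, the exception being the wild-type male culture in control medium (6.87 at 3 days and 6.99 at 7 days). With the culture as a random block neither receptor passed, with an adjusted p of 0.0653 for Tgfbr2 and 0.111 for Tgfbr3. Tgfbr3 also did not pass without the Twist1+/- control arrays at 7 days (-0.29, adjusted p = 0.0605) or without the female Twist1+/- thyroxine array at 7 days (adjusted p = 0.0504).

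Smad7, the feedback inhibitor that blocks the type I receptor, ranged from 5.68 to 6.90 (median 6.12) at 3 days and from 5.46 to 6.66 (median 5.91) at 7 days, so the days overlapped over most of their range. Its fall of 0.25 on the log2 scale (SE 0.08, adjusted p = 0.0430) was seen in 6 of 8 comparisons. Both Twist1+/- cultures in control medium went the other way, from 6.21 to 6.31 in the female and from 6.11 to 6.32 in the male culture. The call was lost without the wild-type male culture (-0.20, adjusted p = 0.114), with the culture as a random block (adjusted p = 0.216), without a filter on dim genes (adjusted p = 0.0633) and, when single arrays were left out, for 13 of the 16 arrays (adjusted p from 0.0572 to 0.115). The exceptions were the wild-type female control arrays of both days and the wild-type male thyroxine array at 7 days.

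Tgfbi encodes a secreted matrix protein named for its induction by TGF-beta. In the wild-type female culture it read 9.06 (control) and 9.03 (thyroxine) at 3 days and 9.84 and 9.83 at 7 days. Wild-type male cells read 9.36 and 9.25 at 3 days and 9.69 and 9.18 at 7 days. The Twist1+/- readings were 8.49 and 8.46, then 9.58 and 9.64, in the female culture, and 8.95 and 8.97, then 9.69 and 9.98, in the male culture. The wild-type male array with thyroxine at 7 days was the only array at 7 days that overlapped the 3-day range, and the only comparison that was lower at 7 days. Tgfbi rose by 0.73 ± 0.09 (SE, 1.66-fold, adjusted p = 0.000155, limma), in 7 of 8 comparisons.

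**Figure D2:**
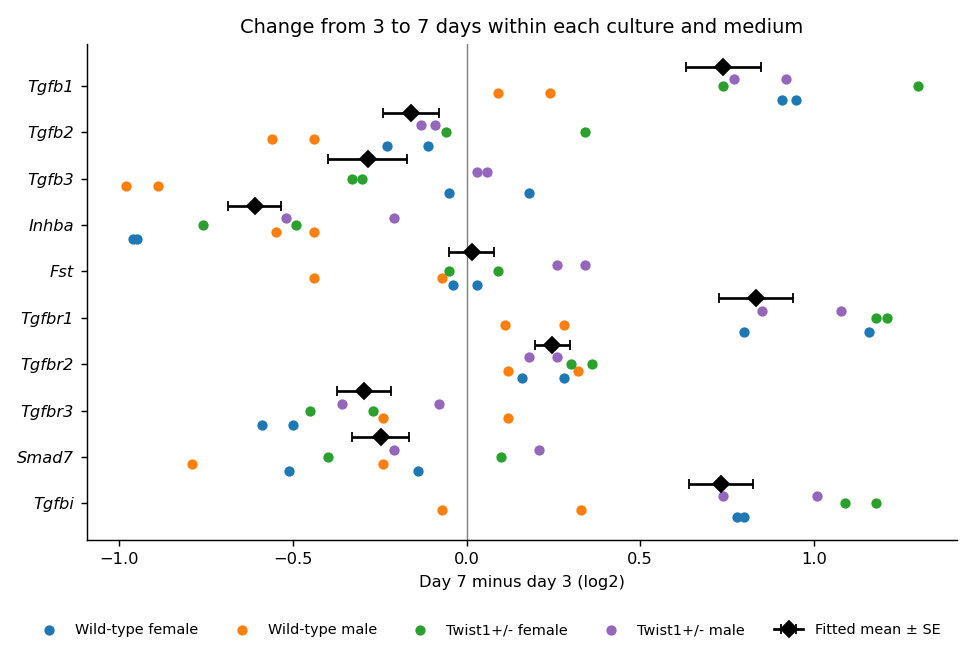
Difference between day 7 and day 3 (log2) for each gene, with a coloured point for each culture and medium and a black diamond for the fitted mean with its SE. Tgfb1, Tgfbr1 and Tgfbi have fitted rises of 0.74, 0.83 and 0.73 and Inhba a fall of 0.61. The wild-type male points are nearest 0 for Tgfb1, Tgfbr1 and Tgfbi. For Tgfbr2, which also rose, they are 0.32 and 0.12.

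Macrophage markers moved with day in the same samples. Of the 18 markers tested, 15 rose and 1 fell, with a median of 1.14, and the defining genes Adgre1 (1.39 ± 0.17, SE), Csf1r (1.07 ± 0.15), Ptprc (1.13 ± 0.14) and Tyrobp (1.49 ± 0.21) were all among those that rose. Of the 11 mesenchymal markers tested, 5 fell and none rose, with a median of -0.17. The summed macrophage level, Tgfb1, Tgfbr1 and Tgfbi were all lowest on the same array, the female Twist1+/- culture with thyroxine at 3 days (12.80, 8.39, 5.44 and 8.46), and for Tgfb1 and Tgfbr1 the wild-type male culture was the only one near its 7-day level at 3 days. The part of macrophages in these results was not tested. Inhba at 3 days was highest in wild-type male cells, where the markers were high, and it was lower at 7 days in every culture.

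**Figure D3:**
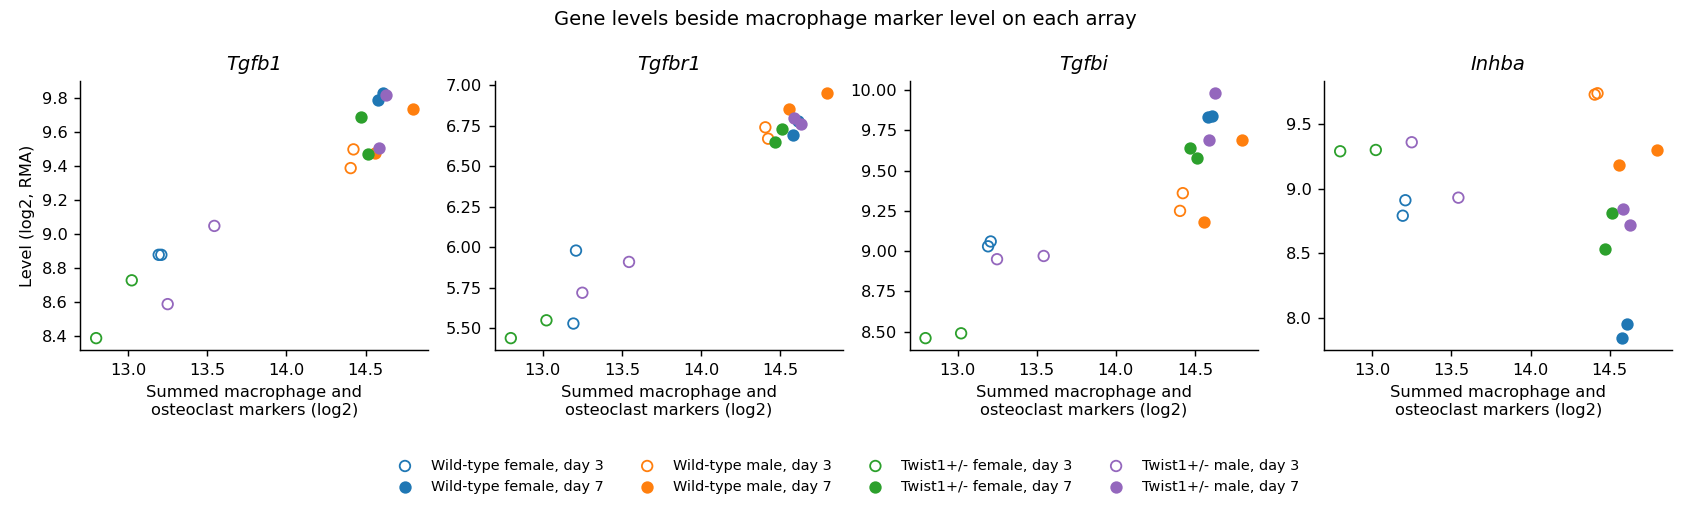
Level of Tgfb1, Tgfbr1, Tgfbi and Inhba (log2, RMA) against the summed level of 19 macrophage and osteoclast markers (log2) on each array, by culture (colour) and day (open, 3 days; filled, 7 days). For Tgfb1 and Tgfbr1 the 3-day arrays of the wild-type male culture, with summed marker levels of 14.41 and 14.42, lie beside the 7-day arrays.

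The genes whose levels were most like each member over the 16 arrays were listed by Pearson's r, as a description of arrays that share 4 cultures and 2 days. For Tgfb1 they were C1qb, a complement subunit gene of macrophages (r = 0.988), Fermt3, an integrin adaptor of blood cells (0.984), and Lrrc25 (0.983). For Tgfbr1 they were Rgs18 (0.989), the macrophage marker Cd68 (0.989) and Cd180 (0.986), and for Tgfbi they were Rhbdf2 (0.966), AB124611 (0.962) and Ets2 (0.960). Tgfbr2 was closest to Lgals3bp (0.967), Mmp19 (0.962) and Pros1 (0.961), and Tgfbr3 to Anxa8 (0.966), Vcan, a large matrix proteoglycan (0.963), and Xpot (0.959). Inhba was closest to Ttc39b (0.960), Ptgs2, the inducible prostaglandin synthase (0.953), and Ccnyl1 (0.945), and Smad7 to Gm6682 (0.946), Mtmr10 (0.927) and Gatad1 (0.922). The values were lower for Tgfb2 (Alas1, 0.883; Mafk, 0.882; Crct1, 0.877), Fst (Trim46, 0.876; Adamts5, 0.853; Asnsd1, 0.847) and Tgfb3 (Tcf19, 0.838; Cdca8, 0.834; Lin54, 0.832).

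Days were also compared within each genotype. For Twist1+/- cells 5 of the 10 genes passed, 4 higher and 1 lower, against 20.0% of all genes (11.8% higher and 8.21% lower). There Tgfbr1 rose by 1.08 ± 0.15 (SE, adjusted p = 0.000448), Tgfbi by 1.01 ± 0.13, Tgfb1 by 0.93 ± 0.15 and Tgfbr2 by 0.28 ± 0.07 (adjusted p = 0.0162), and Inhba fell by 0.50 (SE 0.11, adjusted p = 0.00622). Of all genes 1590 were higher and 1104 lower, and with arrays centred on their medians 1319 were higher and 1801 lower. With centred arrays Tgfbr2 did not pass (0.21, adjusted p = 0.0625) and Tgfbr3 did (-0.35, adjusted p = 0.0360), and Tgfbr2 also did not pass when any of 5 single Twist1+/- arrays (the 4 female arrays and the male thyroxine array at 7 days; adjusted p from 0.0591 to 0.0849) was left out. With the culture as a random block 3 passed, without Inhba and Tgfbr2. The same 3 passed without the Twist1+/- control arrays at 7 days, where the change rests on thyroxine medium alone. In wild-type cells Inhba alone passed, with a fall of 0.73 (SE 0.11, adjusted p = 0.00721), against 3.81% of all genes (1.95% higher and 1.87% lower). Tgfbr1 (0.59 ± 0.15, adjusted p = 0.0502), Smad7 (-0.42 ± 0.12, adjusted p = 0.0602), Tgfb1 (0.55 ± 0.15, adjusted p = 0.0630) and Tgfbi (0.46 ± 0.13, adjusted p = 0.0662) did not pass there. The wild-type count depended on single arrays: it was 0 without either wild-type female array at 3 days, 2 to 5 without single wild-type male arrays, 2 without either Twist1+/- thyroxine array at 3 days and 5 without the wild-type male culture (Tgfb1, Tgfbr1, Tgfbr3, Tgfbi and Inhba), where Tgfb1 rose by 0.93 and Tgfbr1 by 0.98.

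The difference between the genotypes in the change with time was tested directly. An unadjusted p under 0.05 (limma) was reached by 4 of the 10 and by 1474 of all 13453 genes. None of the 10 differences passed, and 0% of all genes were called. The largest were Tgfbi (0.55 ± 0.18, SE, adjusted p = 0.402) and Tgfbr1 (0.49 ± 0.21, adjusted p = 0.435), counted as Twist1+/- minus wild type. All 10 differences were positive, as were those of 7268 of all 13453 genes, with a median of 0.32 against 0.03 over all genes tested. The 10 genes share arrays and several are correlated, so their signs are not independent. With centred arrays Tgfbr2 and Tgfbr3 turned negative (-0.03 and -0.08). Without the wild-type male culture 0 of the 10 passed, and the difference was 0.22 for Tgfbi, 0.10 for Tgfbr1, 0.00 for Tgfb1 and -0.20 for Tgfb3. Of the 18 macrophage markers 17 also had a positive difference, with a median of 0.65, and their part in these values was not tested.

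Beyond the 10 genes, 85 of 91 listed pathway genes were tested. From 3 to 7 days 28 of the 85 fell and 3 rose, against 11.7% and 11.9% of all genes, with a median of -0.10. With no replicate block 15 of the 85 fell, and fewer of all genes were called as well. Among ligands and the proteins that store and release them, 7 of 23 fell and 1 rose. Ltbp1, which anchors latent TGF-beta to the matrix, fell by 0.82 (SE 0.19, adjusted p = 0.00690). Lrrc32, which holds latent TGF-beta on the cell surface, fell by 0.54 (SE 0.05, adjusted p = 3.93e-05). The integrin gene Itgb1 fell by 0.51 (SE 0.06) and Ltbp2 by 0.46 (SE 0.11). Nrros, which holds latent TGF-beta 1 on macrophages and microglia, rose by 0.61 ± 0.12 (SE, adjusted p = 0.00337).

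The next lists are to be read against all genes tested, of which 11.7% fell and 11.9% rose by day. Of the 9 other receptor genes tested, Bambi, a decoy receptor without kinase activity, fell by 0.36 (SE 0.09, adjusted p = 0.00935, limma). No other passed, so the share that fell was near that of all genes. Of 20 transducers and their regulators, 5 fell and none rose. The ubiquitin ligases that remove receptors and SMADs were among them, Smurf1 with a fall of 0.50 (SE 0.07, adjusted p = 0.000310) and Smurf2 with 0.32 (SE 0.06). The inhibitor Smad6 fell by 0.45 (SE 0.09) and Smad9, a transducer of BMP signals, by 0.33 (SE 0.10). Of 33 genes listed as TGF-beta induced in mesenchymal cells, 15 fell and 2 rose, with a median of -0.20. The contractile genes Cnn1 (1.12, SE 0.11) and Tagln (0.73, SE 0.10), the matrix glycoprotein Tnc (0.77, SE 0.07) and the cadherin Cdh2 (0.66, SE 0.10) fell most. Id2 (0.51 ± 0.08, SE) and Bhlhe40 (0.34 ± 0.05), which both encode helix-loop-helix proteins, rose. Acta2, Tagln and Cnn1 are also in the smooth muscle list, of which 6 of 7 fell. Tgfbi, itself a target, is not in this list. Of the 33 induced genes, 9 fell without the Twist1+/- control arrays at 7 days, for which the share of all genes is not given here. With no replicate block 6 fell, and fewer of all genes were called as well.

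**Figure D4:**
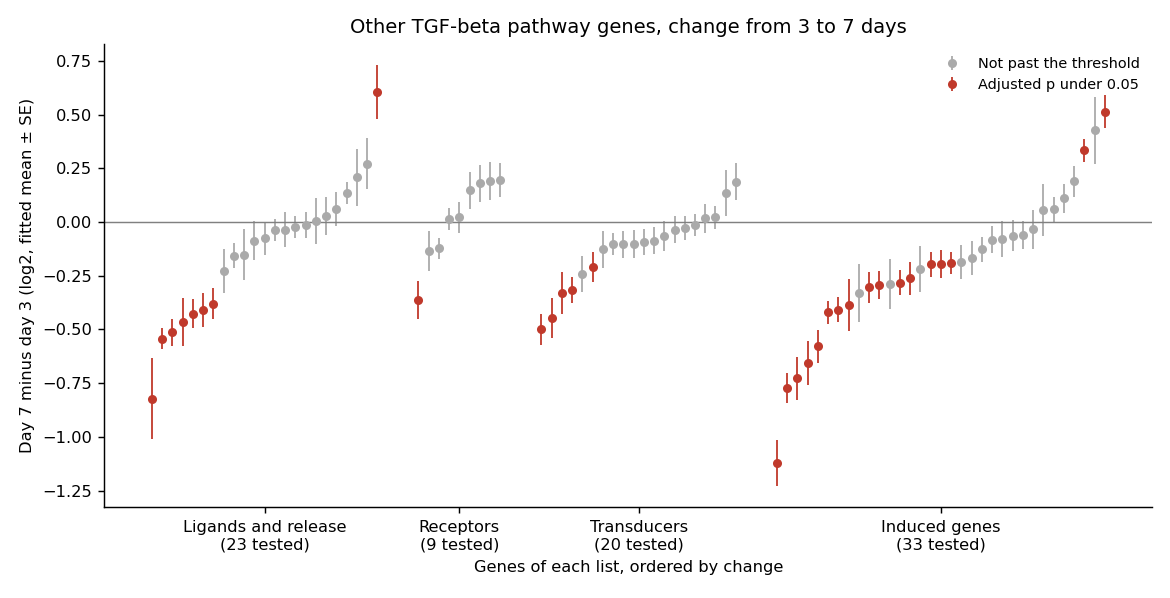
Fitted difference between day 7 and day 3 (log2, with SE) for each of the 85 other pathway genes tested, ordered within 4 lists; red points have an adjusted p under 0.05. Of these, 28 lie below 0 and 3 above it, with Cnn1 the lowest at -1.12 and Nrros the highest at 0.61.

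Thyroxine was then compared with control medium within the 8 pairs of the same culture and day. An unadjusted p under 0.05 (limma) was reached by 1 of the 10 genes and by 825 of all 13453. None of the 10 genes passed, against 0.0966% of all genes (0.0818% higher and 0.0149% lower). Their differences ran from -0.15 to 0.04, with a median of -0.04 against -0.02 over all genes. Inhba came closest, with a difference of -0.15 ± 0.06 (SE, adjusted p = 0.754). It was lower with thyroxine in 8 of 8 pairs, from -0.43 in the male Twist1+/- pair at 3 days to -0.01 in 2 pairs, and 0.357% of all genes tested were lower in 8 of 8. Tgfbr3 was lower in 7 of 8 pairs (-0.11 ± 0.06, adjusted p = 0.829). For the ligands the difference was 0.03 ± 0.07 for Tgfb1, -0.04 ± 0.07 for Tgfb2 and -0.01 ± 0.05 for Tgfb3, each with both signs among the pairs.

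In wild-type pairs none of the 10 passed (limma, 0.0149% of all genes called). At an unadjusted p under 0.05 were 0 of the 10 and 752 of all 13453 genes. In Twist1+/- pairs none passed (limma, 0.201% of all genes called, 0.164% higher and 0.0372% lower). There 2 of the 10 and 1397 of all genes were at an unadjusted p under 0.05. Smad7 showed the widest spread. Smad7 was lower with thyroxine in 4 of 4 Twist1+/- pairs, by 0.08 and 0.13 at 3 days and by 0.58 and 0.55 at 7 days in the female and male cultures. In wild-type cells it differed by 0.29 and -0.08 in the female and by 0.06 and 0.61 in the male culture at 3 and 7 days. The difference between the genotypes was -0.56 ± 0.16 (SE, adjusted p = 0.363) and did not pass. The 7-day Twist1+/- differences came from control arrays at 6.31 and 6.32 against 5.73 and 5.77 with thyroxine. Without these pairs the genotypes were compared at 3 days only, so the 7-day wild-type pairs were left out too. The genotype difference at 3 days was -0.28 ± 0.24 (SE, adjusted p = 0.997, limma). Tgfb1 depended on a single pair. It differed by -0.34 in the female Twist1+/- pair at 3 days and by 0.22, 0.46 and 0.31 in the 3 other Twist1+/- pairs. Without that pair Tgfb1 passed both in Twist1+/- cells (0.36 ± 0.08, SE, adjusted p = 0.0275, limma) and in the genotype difference (0.47 ± 0.10, adjusted p = 0.0301), whereas over all pairs it did not (0.16, adjusted p = 0.612, and 0.27, adjusted p = 0.584). The summed macrophage level was 13.02 in control medium and 12.80 with thyroxine in the female Twist1+/- pair at 3 days, and 13.25 and 13.54 in the male one, and its part in the Tgfb1 values was not tested. Over the 10 genes none passed for the genotype difference (limma, 0.0595% of all genes called) or for the difference between days (0.00743% of all genes called). At an unadjusted p under 0.05 were 1 of the 10 and 1282 of all genes for the genotype difference. For the difference between days these counts were 0 and 724.

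**Figure D5:**
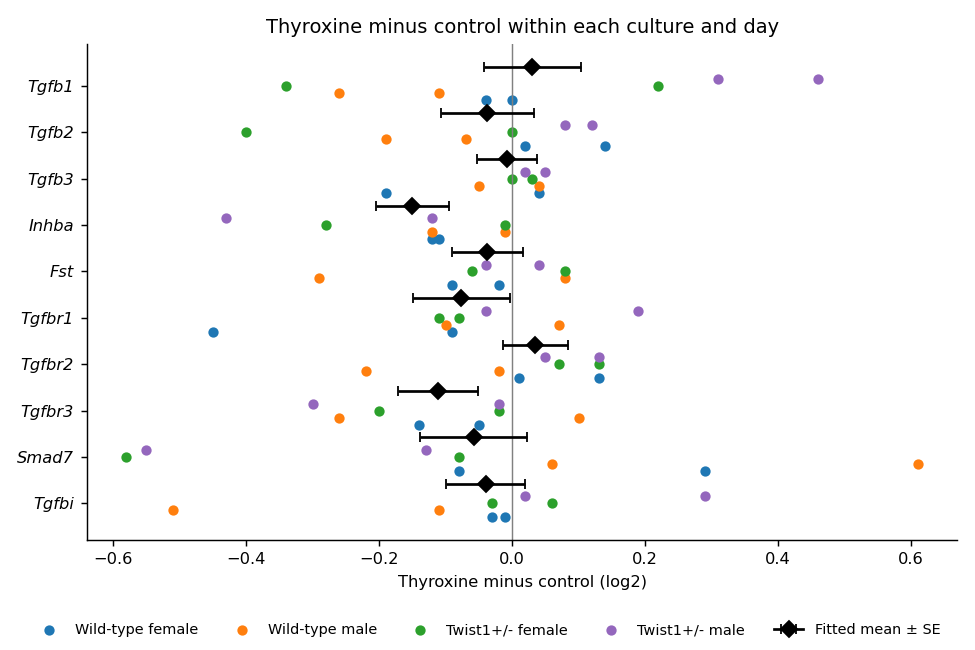
Difference between the thyroxine and the control array (log2) of each culture and day for each gene, with a coloured point for each pair and a black diamond for the fitted mean with its SE. The fitted means lie between -0.15 (Inhba) and 0.04 (Tgfbr2), and all 8 Inhba points lie below 0.

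Of the 85 other pathway genes none passed for thyroxine over all pairs (limma), with a median of -0.03. At an unadjusted p under 0.05 were 10 of the 85 and 825 of all 13453 genes. The smallest p of each list belonged to Ltbp4 (0.17, adjusted p = 0.789), Bmpr2 (-0.10, adjusted p = 0.829), Smad9 (0.18, adjusted p = 0.786) and Cnn1 (-0.31, adjusted p = 0.362). In Twist1+/- pairs Snai1, a repressor of epithelial genes, was higher by 0.46 without passing (adjusted p = 0.0617).

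The genotypes, 2 cultures against 2, were compared with the culture as a random block. None of the 10 genes passed in control medium or over both media (limma), and 0% of all genes did. An unadjusted p under 0.05 was reached by 2 of the 10 and 639 of all 13453 genes in control medium. Over both media it was reached by 2 of the 10 and 619 of all genes. Fst came closest over both media, with a difference of 0.30 ± 0.09 (Twist1+/- minus wild type, SE, adjusted p = 0.937), and was the higher of the genotypes in 7 of 8 comparisons matched for sex, medium and day. Its level was 7.75 ± 0.04 (SD, n = 4 arrays) in the Twist1+/- female, 7.72 ± 0.17 in the Twist1+/- male, 7.52 ± 0.04 in the wild-type female and 7.36 ± 0.19 in the wild-type male culture. Tgfbr1 was lower in the mutant, with differences from -0.43 to -0.04 between the female and from -0.95 to -0.09 between the male cultures. Its fitted difference was -0.33 ± 0.16 (SE, adjusted p = 0.937, limma), and the 2 largest were against the wild-type male culture at 3 days. The matched comparisons of both genes repeat the same cultures over medium and day, so they are not independent. Without the wild-type male culture the fit compares only the female cultures, and the Tgfbr1 difference was -0.15. The summed macrophage level was also higher in that culture at 3 days, and its part in the difference was not tested.

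All of the genes but Tgfb1, Tgfbi and Fst differed more between the wild-type cultures than between genotypes. Tgfbr3 averaged 6.89 ± 0.12 (SD, n = 4 arrays) in the wild-type male culture and 7.61 ± 0.32, 7.60 ± 0.22 and 7.78 ± 0.18 in the wild-type female, Twist1+/- female and Twist1+/- male cultures. Tgfbr2 averaged 8.88 ± 0.16 there and 9.36 to 9.48 elsewhere. The summed mesenchymal marker level was also lowest in the wild-type male culture, and its part in the Tgfbr2 and Tgfbr3 values was not tested. Inhba averaged 9.49 ± 0.29 in the wild-type male and 8.37 ± 0.56 in the wild-type female culture, with both Twist1+/- cultures between them at 8.98 ± 0.38 and 8.96 ± 0.28. Smad7 had the same order, with 6.61 ± 0.39 and 5.66 ± 0.22 at the ends and 6.10 ± 0.25 and 6.05 ± 0.23 between. Tgfb2 was highest in the wild-type male (6.94 ± 0.30) and Twist1+/- female (6.84 ± 0.18) cultures, which did not differ beyond their spread. Tgfbr1 averaged 6.80 ± 0.12 in the wild-type male and 6.25 ± 0.60 in the wild-type female culture, and Tgfb3 9.65 ± 0.54 and 9.36 ± 0.09. These are single cultures, so no test was made. Without the wild-type male culture the genotype comparison rests on 1 wild-type culture. Because sex is in the fit, it then sets the Twist1+/- female against the wild-type female culture. No spread between cultures is left to estimate, so no call is read from it. The differences were then 0.61 for Inhba, 0.49 for Tgfb2, 0.43 for Smad7 and -0.40 for Tgfbi over both media. Over all 4 cultures the difference of Smad7 was -0.07. Of the 85 other pathway genes none passed by genotype (limma). At an unadjusted p under 0.05 were 6 of the 85 in control medium and 14 over both media. Of all 13453 genes these counts were 639 and 619.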

How the data were processed

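RNA from 16 cell samples was measured on Affymetrix whole-transcript arrays, 100 ng of total RNA each, per the labels' protocols. These also describe cells of 2 litters kept apart by sex and genotype, with 3 wells of a 6 well plate for each medium. Pooling of wells is not described there. The authors deposited log2 expression values made with RMA in Expression Console (Affymetrix), as the submitters' processing notes name it. RMA equalises the arrays, so a shift of all genes cannot be seen. The sources used here do not give software versions or the genome build.

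Of 41345 probe sets 23521 had 1 gene symbol, 1814 several and 16010 none in the platform annotation. The brightest probe set of each of 22180 genes was used, and 13453 genes whose mean reached 3.905 (40th percentile over named probe sets) entered limma 3.58.1 in R 4.3.3 (eBayes with an intensity trend, two-sided, Benjamini-Hochberg over all genes). Thyroxine was fitted with the culture-and-day pair as a fixed block (4 residual degrees of freedom), since the labels put both media of a culture on a plate. Day was fitted with 8 group means and the culture as a fixed effect (6), so that days were compared within cultures. Genotype was fitted with 8 group means, sex and the culture as a random block (7, within-culture correlation 0.202, statmod 1.5.0). P-values measure the spread between arrays of these cultures, which may be technical in part. The thyroxine, day and genotype fits were run on simulated data with known changes, for some of the comparisons. Simulated cultures differed by offsets that stayed the same on both days, so a culture with its own change by day was not covered. The genes, lists and tests were chosen with earlier results of these data known. Named genes were the 10 members, the largest changes past the threshold (up to 4 per direction and pathway list), otherwise the smallest p of a list, the defining markers and the 3 genes most correlated with each member. Any other named gene was chosen after its values were seen. Some genes of the lists are not analysed here. Alternatives covered the variance trend, the filter, the probe sets, centring, the block, the wild-type male culture, the Twist1+/- control arrays at 7 days and single arrays or pairs.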

Additional observations from a re-analysis of the deposited data

Results flagged for a closer look

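Tgfb2 and Inhba differed between the genotypes with opposite sign in the sexes, which drew attention because every female comparison went one way and every male comparison the other. Twist1+/- minus wild type, Tgfb2 averaged 0.49 over the 4 female comparisons of the same medium and day and -0.48 over the 4 male ones. Inhba averaged 0.61 over the female and -0.53 over the male comparisons. The female averages are the same values as the differences given for both genes without the wild-type male culture. Each sex and genotype is 1 culture, so sex and culture cannot be told apart, and the difference was not tested.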

How the results depend on the processing

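The alternatives for the 10 genes gave 2280 values, of which 2207 kept their side of the threshold, 40 lost and 32 gained a call, and 1 call had the opposite direction: Smad7 by genotype over both media, 0.43 without the wild-type male culture. Another 113 values that were called on neither side changed sign. The count by day over all cultures was 3 with no replicate block and 4 with a random block, and 5 to 8 without single arrays. In wild-type cells the main count of 1 became 3 with the stricter filter, 2 with centred arrays, 5 without the wild-type male culture and 0 with no replicate block or a random block, and 0 to 5 without single arrays. In Twist1+/- cells the main count of 5 became 3 with no replicate block, with a random block and without the Twist1+/- control arrays at 7 days, and 4 to 5 without single arrays. Without those control arrays the Twist1+/- change by day rests on thyroxine medium alone. Shares of all genes are given below for some settings only, so the other counts cannot be set against them. By genotype the count became 2 in control medium and 4 over both media without the wild-type male culture, but that fit treats arrays of 1 wild-type culture as replicates of the genotype, so these, the Smad7 value included, are not read as calls. For thyroxine in Twist1+/- cells and for its genotype difference it was 0 to 1 without single pairs, and no thyroxine count of the 10 genes changed with no replicate block. In counts chosen after seeing the data, the pathway genes lower at 7 days numbered 15 with no replicate block, and the induced genes 6, or 9 without the Twist1+/- control arrays at 7 days. The share of all genes called by day over all cultures was 13.7% with no replicate block (1842 genes against 3171). The share called in wild-type cells was 12.1% without the wild-type male culture and 0.0595% with no replicate block. With centred arrays 348 of all genes were higher and 227 lower there. The cause of these changes was not tested, beyond the fewer arrays or degrees of freedom that some leave. Signal over background was not analysed here.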

Other observations

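Over the 16 arrays, which share 4 cultures and 2 days, Tgfb1, Tgfbr1 and Tgfbi had similar profiles, with Pearson's r of 0.932 between Tgfb1 and Tgfbr1, 0.932 between Tgfb1 and Tgfbi and 0.856 between Tgfbr1 and Tgfbi. Inhba, Smad7 and Tgfb2 formed a second set, with r of 0.823 between Smad7 and Inhba, 0.748 between Tgfb2 and Smad7 and 0.690 between Tgfb2 and Inhba. Tgfbr2 ran opposite to that set, at -0.811 with Smad7, -0.801 with Inhba and -0.641 with Tgfb2. Tgfbr3 ran opposite to Tgfbr1 (-0.728) and Tgfb1 (-0.634).

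Of the 18 macrophage and osteoclast markers tested by day 3 did not rise, and they are named here after their values were seen. Mmp9, a matrix protease gene, fell by 0.39 (SE 0.08, adjusted p = 0.00278, limma), and Ctsk (-0.19 ± 0.07, SE, adjusted p = 0.0796) and Acp5 (-0.12 ± 0.10, adjusted p = 0.438) did not pass. Among the 15 that rose were Cd68 (1.54 ± 0.19) and C1qa (1.43 ± 0.17).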
